A study of Homo sapiens with 12 samples.

Results

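Transcript levels of 10 regulators of the NRF2 system were examined in Calu-6 cells after *LAPTM4B* knockdown and after serum withdrawal. The regulators were chosen by name: the CNC activators *NFE2L1* (NRF1), *NFE2L2* (NRF2) and *NFE2L3* (NRF3), the NRF2 inhibitor *KEAP1*, the CNC repressors *BACH1* and *BACH2*, the small MAF partners *MAFF*, *MAFG* and *MAFK*, and *OSGIN1*. Of these 10, 9 had a probe set that carries their symbol alone, out of 18417 genes measured in this way, and no probe set used here was named *MAFK*. Where a gene had several probe sets, the one with the highest mean over the 12 arrays stood for it, which concerned only *MAFG* among the regulators. Calu-6 is an established human lung cancer line. All cells were transfected, either with scrambled siRNA (siControl) or with a pool of siRNAs against *LAPTM4B* (siLAPTM4B), a gene for a lysosomal membrane protein. One day later the medium was replaced by one with 10% FBS or with 0% FBS, and total RNA was taken 48 h after that change, 72 h after transfection. Each of the 4 groups, siControl 0% FBS, siLAPTM4B 0% FBS, siControl 10% FBS and siLAPTM4B 10% FBS, had 3 replicates on Affymetrix Human Gene 1.0 ST arrays. These are 1 cell line and 1 siRNA pool, so other lines and other siRNAs against *LAPTM4B* were not examined here.

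NRF2 is a transcription factor that is made continuously and destroyed continuously: KEAP1 holds it in the cytoplasm and hands it to a CUL3 ubiquitin ligase, and electrophiles or oxidants that modify KEAP1 let newly made NRF2 reach the nucleus. There it pairs with a small MAF protein and binds antioxidant response elements (AREs) beside genes for glutathione synthesis, NADPH supply, heme breakdown and drug efflux. BACH1 pairs with the same small MAF proteins, occupies many of the same elements and represses them until heme or other signals remove it. Most of this control therefore acts on protein stability and location, which arrays of RNA do not measure.

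Promoter letters of the regulators are shown first because the CNC and MAF proteins bind elements of this kind. RefSeq promoter windows (GRCh38.p14, 250 bases before to 50 after a start) matched 9 of the 10 regulators, with 15 windows in all. The ARE core TGACNNNGC and the AP-1 element TGACTCA, which can overlap, were searched on both strands. Of 35116 windows of 300 bases, 13.3% held the ARE core and 4.95% held the AP-1 element. *KEAP1* had 2 ARE cores in 1 of its windows, beginning at -54 and -31 counted from the start (chr19:10502807-10502835 and chr19:10502784-10502812, minus strand). *MAFF* had 1, at -122 from a start (chr22:38201862-38201890, plus strand). *BACH1* had 1 AP-1 element, at -48 from a start (chr21:29298864-29298890, plus strand), and *OSGIN1* had 1, at -97 (chr16:83953133-83953159, plus strand). Each line below runs 5′ to 3′ on the strand of the gene, with the matched letters in capitals.
KEAP1, ARE core: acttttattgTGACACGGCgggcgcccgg
KEAP1, ARE core on the opposite strand: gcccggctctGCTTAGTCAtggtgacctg
MAFF, ARE core on the opposite strand: cttccaggggGCGGGGTCAtacgggggcg
BACH1, AP-1 element on the opposite strand: gcggaaggagTGAGTCAcctgaccgct
OSGIN1, AP-1 element: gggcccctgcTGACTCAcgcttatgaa
The windows of *NFE2L1*, *NFE2L2*, *NFE2L3*, *BACH2* and *MAFG* held neither motif. A match of letters is a description of these windows and not a binding site. No link between a motif and a change of the transcript was tested.

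The values are log2 RMA signals, and over all features an array had a lower quartile between 6.14 and 6.19, a median between 7.71 and 7.76 and an upper quartile between 9.69 and 9.75. The CNC activators and *KEAP1* lay in the upper quartile on every array. *NFE2L2* averaged 11.25 over the 12 arrays (11.16 to 11.33), *NFE2L3* 11.29 (11.11 to 11.39) and *KEAP1* 10.88 (10.81 to 10.96), and *NFE2L1* lay between 10.92 and 11.10. *MAFG* averaged 9.63 (9.24 to 10.03), *BACH1* 9.08 (8.77 to 9.39), *OSGIN1* 8.19 (7.99 to 8.31), *MAFF* 7.90 (7.73 to 8.09) and *BACH2* 7.41 (7.22 to 7.69). Probe sets differ in brightness for the same amount of RNA, so these signals place each probe set on its array and do not rank the genes by abundance. The 4 group means of a regulator spanned 0.70 for *MAFG*, 0.54 for *BACH1*, 0.27 for *BACH2*, 0.26 for *MAFF*, 0.24 for *NFE2L3*, 0.13 for *NFE2L1*, 0.10 for *KEAP1* and 0.08 for both *NFE2L2* and *OSGIN1*. With the groups of each regulator put in order of their means, neighbouring groups overlapped throughout for *NFE2L1*, *NFE2L2*, *KEAP1*, *BACH2* and *OSGIN1*. *NFE2L3* had a gap only between siControl 0% FBS and the lowest group, siLAPTM4B 0% FBS, and *MAFF* only between siControl 10% FBS and the lowest group, siLAPTM4B 10% FBS. *MAFG* ran from siControl 0% FBS over siLAPTM4B 0% FBS and siLAPTM4B 10% FBS down to siControl 10% FBS, and only the last pair overlapped.

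**Figure D1:**
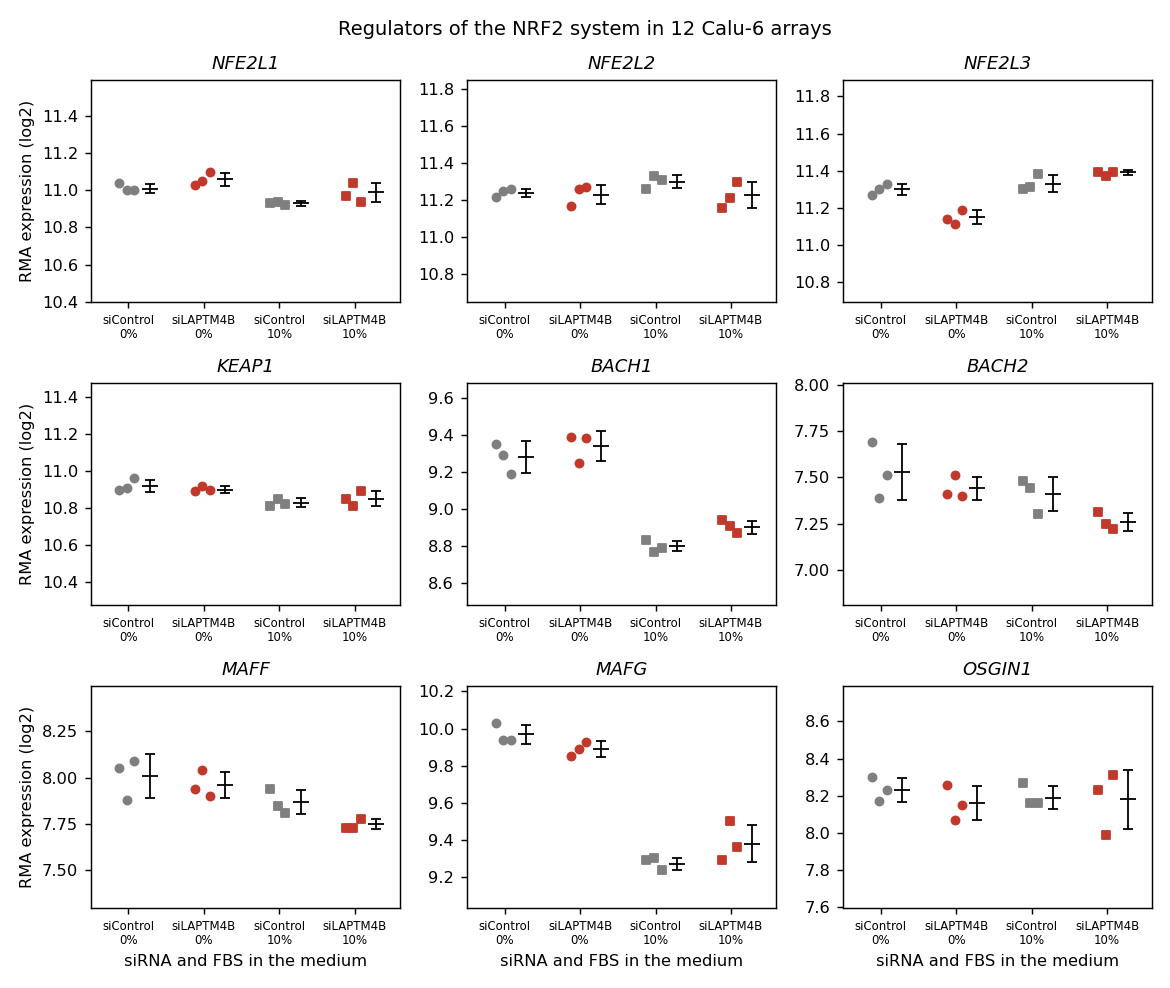
Log2 RMA signal of the 9 measured regulators in the 4 groups (x axis: siRNA and FBS in the medium), with 1 point per array (circles 0% FBS, squares 10% FBS, grey siControl, red siLAPTM4B) and the group mean ± SD (n = 3) as a black bar beside it. Each panel spans the same 1.2 log2 units. *MAFG* and *BACH1* sit higher in both 0% FBS groups than in both 10% FBS groups, while *NFE2L2* stays between 11.16 and 11.33 on all 12 arrays.

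The library labels were checked by the targeted gene. *LAPTM4B* read 11.94, 11.87 and 11.93 in siControl 0% FBS against 10.45, 10.50 and 10.54 in siLAPTM4B 0% FBS, and 11.76, 11.75 and 11.80 against 10.01, 10.04 and 9.99 with 10% FBS, a log2 fold change of -1.42 and of -1.75. Arrays correlated with each other at 0.9922 to 0.9982 and no pair was identical. The epithelial keratins *KRT8* (mean 12.89) and *KRT18* (12.23) were high, whereas *CDH1*, the E-cadherin gene, read 6.21 and all 5 lung epithelial lineage markers lay below the median. Of 4 leukocyte markers measured, 1 lay in the lower quartile (*PTPRC*, mean 5.25) and 3 lay below the median, while *LYZ* averaged 9.32. Of 6 fibroblast markers, 1 lay in the lower quartile (*DCN*, 5.25) and 3 lay below the median, while *COL1A1* averaged 8.58, *PDGFRB* 8.49 and *LUM* 7.83. All 3 endothelial markers lay below the median. The log2 of the summed signal of 6 fibroblast markers was 10.18 to 10.21 in siControl 0% FBS, 10.02 to 10.11 in siLAPTM4B 0% FBS, 10.86 to 10.93 in siControl 10% FBS and 10.62 to 10.72 in siLAPTM4B 10% FBS, and that of 4 leukocyte markers was 10.12 to 10.14, 9.91 to 10.05, 9.69 to 9.79 and 9.77 to 9.86 in the same order. The sum of the 6 epithelial markers was 13.71 to 13.75, 13.84 to 13.89, 13.84 to 13.86 and 13.93 to 13.98. Signals were added unlogged, so *KRT8* and *KRT18* outweigh the other epithelial markers, and the members of a list need not move together. Over the 12 arrays *KRT7* spanned 9.11 to 11.17 and *EPCAM* 8.20 to 9.89. The study listed *KRT7* as lower and *KRT8* as higher after knockdown without serum. All of these sums moved with serum. Without serum the fibroblast and epithelial sums were lower and the leukocyte sum higher under both siRNAs, with no overlap of arrays. With knockdown the fibroblast sum was lower and the epithelial sum higher in both media, and the leukocyte sum was lower without serum, with no overlap of arrays in any of these. Their part in the results was not tested. In RNA from whole cultures, fewer cells expressing a gene and less of its RNA per cell cannot be told apart.

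*LAPTM4B* knockdown left the regulators' transcripts close to their control levels in both media. Without serum 0 of the 9 regulators passed an adjusted p under 0.05 (limma, Benjamini-Hochberg over 19460 probe sets), where 2.33% of all probe sets passed. With 10% FBS it was again 0 of 9, where 4.08% of all probe sets passed. At an unadjusted p under 0.05, 1 regulator was lower without serum, where 15.1% of all probe sets were that far apart, and with 10% FBS, where it was 18.2%, *BACH1* was higher and *BACH2* and *MAFF* were lower. The methods' t-test with the same adjustment also gave 0 in both media, but it called only 27 and 177 of all 19460 probe sets. The arrays of siControl and siLAPTM4B did not overlap for 2 of 9 regulators without serum and for 2 of 9 with 10% FBS, against 21.3% and 24.5% of all probe sets, so these shares were close to the background. The median log2 fold change of the 9 was -0.048 without serum and 0.022 with 10% FBS, beside 0.00676 and 0.00434 over all probe sets. No 95% interval reached beyond 0.28 on the log2 scale in either direction.

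*NFE2L2*, the gene for NRF2 itself, read 11.22, 11.25 and 11.26 in siControl 0% FBS and 11.17, 11.26 and 11.27 in siLAPTM4B 0% FBS. The knockdown arrays lay around the control arrays, 1 below them and 2 among or just above them. The log2 fold change was -0.01 (SE 0.045, 95% interval -0.11 to 0.09, adjusted p = 0.95), a ratio of 0.993 with an interval of 0.924 to 1.07. With 10% FBS *NFE2L2* read 11.26, 11.33 and 11.31 in siControl and 11.16, 11.21 and 11.30 in siLAPTM4B, and the groups overlapped through the last of these arrays. Its log2 fold change there was -0.08 (SE 0.052, 95% interval -0.20 to 0.04, adjusted p = 0.50), a ratio of 0.948 with an interval of 0.873 to 1.03. A ratio under 0.873 lay outside both intervals. *KEAP1*, its inhibitor, gave -0.02 (95% interval -0.12 to 0.07) without serum and 0.02 (-0.08 to 0.13) with 10% FBS, and the arrays of both siRNAs overlapped in each medium.

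*NFE2L3*, which encodes the membrane-anchored relative NRF3, was the regulator with the smallest p after knockdown without serum. In the limma fit made here it was the 1 regulator with an unadjusted p under 0.01, the threshold that the study used. It read 11.27, 11.30 and 11.33 in siControl 0% FBS and 11.14, 11.11 and 11.19 in siLAPTM4B 0% FBS, so every knockdown array lay below every control array. The log2 fold change was -0.15 (SE 0.044, 95% interval -0.25 to -0.05, adjusted p = 0.14), a ratio of 0.90. With 10% FBS it read 11.30, 11.31 and 11.38 in siControl and 11.39, 11.37 and 11.39 in siLAPTM4B, a log2 fold change of 0.06 (SE 0.045, adjusted p = 0.59) with overlapping arrays. The difference between the media was -0.21 (SE 0.057, 95% interval -0.33 to -0.09, adjusted p = 0.18), and it did not pass the threshold over all probe sets. With an intensity trend and a robust prior variance the fall without serum and the difference between media passed, at adjusted p = 0.011 and 0.038, while the highest values over the alternatives were 0.38 and 0.37.

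*NFE2L1*, whose protein NRF1 drives proteasome genes, gave 0.05 without serum (95% interval -0.05 to 0.15) and 0.06 with 10% FBS (-0.05 to 0.16). The repressor *BACH1* gave 0.06 without serum (-0.08 to 0.20). With 10% FBS *BACH1* read 8.83, 8.77 and 8.79 in siControl and 8.94, 8.91 and 8.87 in siLAPTM4B, so the groups did not overlap, with a log2 fold change of 0.11 (SE 0.045, adjusted p = 0.25). Its relative *BACH2*, best known from lymphocytes, gave -0.09 without serum (-0.26 to 0.08) and -0.15 with 10% FBS (-0.28 to -0.02, adjusted p = 0.22). Among the small MAF genes, whose products lack an activation domain and act through their partner, *MAFF* gave -0.05 without serum and -0.12 with 10% FBS (adjusted p = 0.26), where its arrays of 7.94, 7.85 and 7.81 in siControl and 7.73, 7.73 and 7.78 in siLAPTM4B did not overlap. *MAFG* gave -0.08 without serum (-0.19 to 0.03) and 0.11 with 10% FBS (-0.03 to 0.24). *OSGIN1*, an oxidative stress-induced growth inhibitor that NRF2 is known to induce, gave -0.08 without serum (-0.21 to 0.06) and -0.02 with 10% FBS (-0.20 to 0.17).

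**Figure D2:**
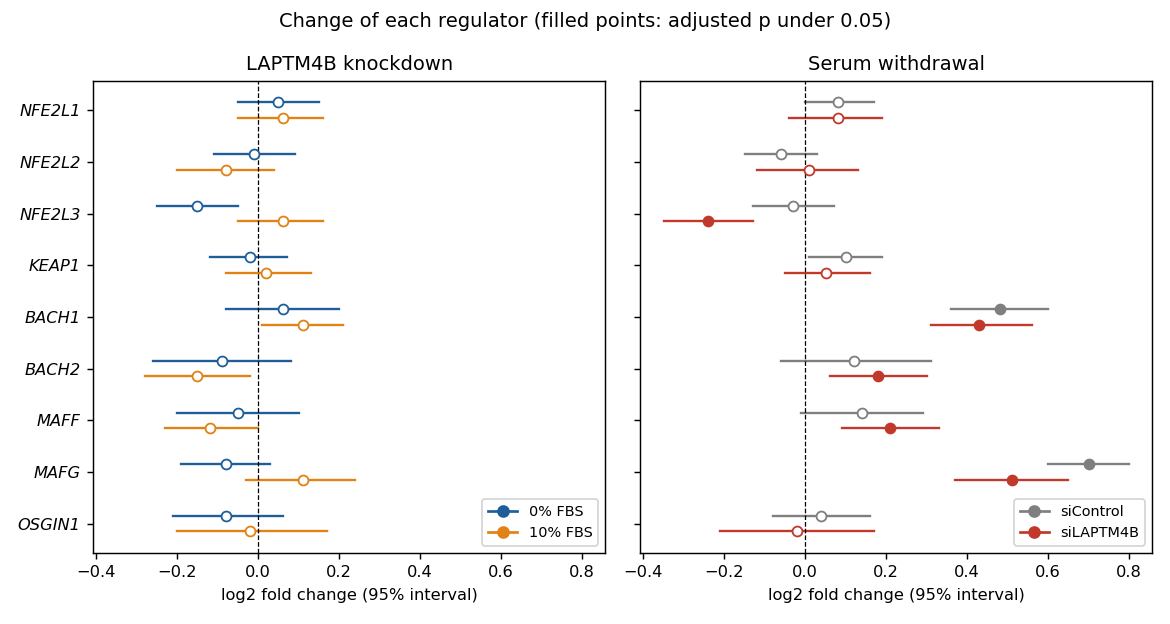
Log2 fold change (x axis, points) with its 95% interval (lines) of each regulator after *LAPTM4B* knockdown (left, siLAPTM4B minus siControl, blue 0% FBS, orange 10% FBS) and after serum withdrawal (right, 0% FBS minus 10% FBS, grey siControl, red siLAPTM4B), with filled points where the adjusted p was under 0.05. All knockdown points are open, and on the right *BACH1* and *MAFG* are filled for both siRNAs while *NFE2L3*, *BACH2* and *MAFF* are filled for siLAPTM4B alone.

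Serum withdrawal raised *MAFG* and *BACH1* under both siRNAs. In siControl cells 2 of 9 regulators rose and 0 fell at an adjusted p under 0.05, where 26% of all probe sets passed in either direction and 13.2% passed as higher. In siLAPTM4B cells 4 rose and 1 fell, where 20.7% passed in either direction and 9.74% passed as higher. The arrays without serum did not overlap those with 10% FBS for 4 of 9 regulators under siControl and for 5 of 9 under siLAPTM4B, against 41.1% and 36% of all probe sets. The median log2 fold change of the 9 was 0.097 and 0.076, beside -0.015 and -0.00584 over all probe sets. In siControl the 2 calls were thus no larger a share than among all probe sets in either direction.

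*MAFG*, the small MAF partner with the widest span of group means, read 9.29, 9.30 and 9.24 in siControl 10% FBS and 10.03, 9.94 and 9.94 in siControl 0% FBS. Every array without serum lay far above every array with serum, and the log2 fold change was 0.70 (SE 0.044, 95% interval 0.60 to 0.80, adjusted p = 1.4e-05), a 1.62-fold rise. In siLAPTM4B cells *MAFG* read 9.29, 9.50 and 9.36 with 10% FBS and 9.85, 9.89 and 9.93 without serum. The groups were again apart, and the rise was 0.51 (SE 0.062, 95% interval 0.37 to 0.65, adjusted p = 0.00035), or 1.42-fold. The rise was 0.19 smaller in siLAPTM4B cells on the log2 scale, a difference of -0.19 (95% interval -0.35 to -0.02, adjusted p = 0.39) that did not pass the test.

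The 3 probe sets of *MAFG* share transcript accessions, so they are not independent, and they correlated at 0.914 to 0.986 over the 12 arrays. All 3 rose without serum, the second by 0.51 in siControl and 0.42 in siLAPTM4B (adjusted p = 8.1e-05 and 0.00017) and the third by 0.33 and 0.32 (adjusted p = 0.0018 and 0.0025). The size of the *MAFG* rise in siControl therefore depended on the probe set, from 0.33 to 0.70. The smaller rise in siLAPTM4B cells was -0.09 in the second and -0.01 in the third. After knockdown without serum the second gave -0.02 and the third 0.01, so neither direction was shared by all 3.

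**Figure D3:**
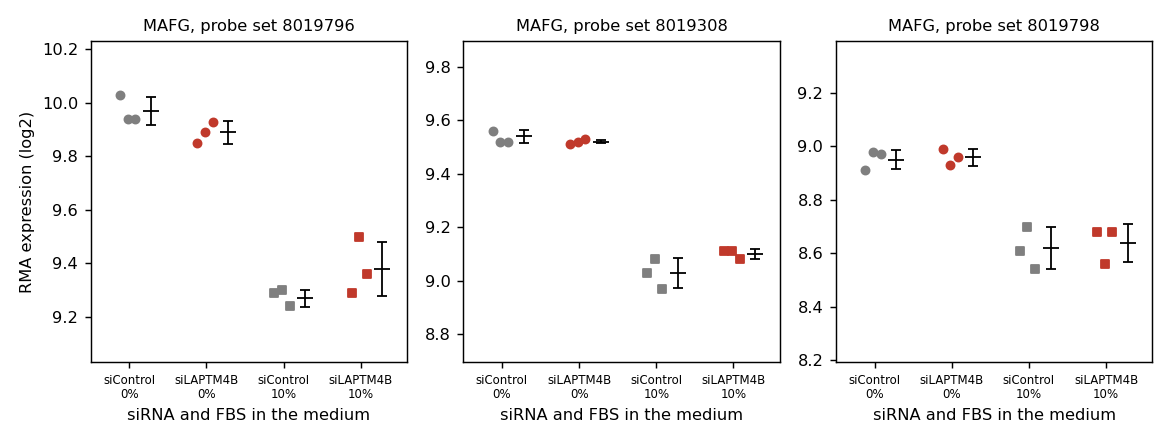
Log2 RMA signal of the 3 *MAFG* probe sets (1 per panel, each spanning 1.2 log2 units) by siRNA and FBS in the medium, with 1 point per array and the group mean ± SD (n = 3). In each panel all 6 arrays without serum lie above all 6 arrays with 10% FBS, by 0.70, 0.51 and 0.33 in siControl from left to right.

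*BACH1* read 8.83, 8.77 and 8.79 in siControl 10% FBS and 9.35, 9.29 and 9.19 in siControl 0% FBS. All arrays without serum were higher, by 0.48 (SE 0.051, 95% interval 0.36 to 0.60, adjusted p = 0.00027), or 1.4-fold. In siLAPTM4B cells it read 8.94, 8.91 and 8.87 with 10% FBS and 9.39, 9.25 and 9.38 without serum, again with no overlap and a rise of 0.43 (SE 0.056, 95% interval 0.31 to 0.56, adjusted p = 0.00048). The rises under both siRNAs differed by -0.05 (95% interval -0.21 to 0.11, adjusted p = 0.86). The transcripts of a repressor of AREs and of a partner shared by activators and repressors thus rose in the same cells, and the mean order of *BACH1* was siLAPTM4B 0% FBS, siControl 0% FBS, siLAPTM4B 10% FBS, siControl 10% FBS, with overlap only between the first and second of these.

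The other calls were found in siLAPTM4B cells. *NFE2L3* read 11.39, 11.37 and 11.39 with 10% FBS and 11.14, 11.11 and 11.19 without serum, a fall of 0.24 on the log2 scale with an interval of -0.35 to -0.13 (adjusted p = 0.0064) that passed in all 12 alternatives. In siControl cells its change was -0.03 (SE 0.042, adjusted p = 0.68). *MAFF* read 7.73, 7.73 and 7.78 with 10% FBS and 7.94, 8.04 and 7.90 without serum, a rise of 0.21 (SE 0.053, adjusted p = 0.020). On leaving out single arrays, *MAFF* no longer passed when siLAPTM4B 0% FBS replicate 2 (adjusted p = 0.10), siLAPTM4B 10% FBS replicate 1 (0.058) or siLAPTM4B 10% FBS replicate 2 (0.056) was removed, within a range of 0.013 to 0.10 over the alternatives. In siControl *MAFF* changed by 0.14 (adjusted p = 0.15) and passed without siControl 0% FBS replicate 2 (0.21, adjusted p = 0.039, range over the alternatives 0.039 to 0.39).

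*BACH2* read 7.31, 7.25 and 7.22 in siLAPTM4B 10% FBS and 7.41, 7.51 and 7.40 in siLAPTM4B 0% FBS, a rise of 0.18 (SE 0.054, adjusted p = 0.044). This call held in 2 of 12 alternatives, with adjusted p between 0.029 and 0.18, and it was lost on leaving out any of these arrays except siLAPTM4B 10% FBS replicate 1. With the replicate block its adjusted p was 0.054. In siControl its arrays overlapped, at 7.48, 7.44 and 7.30 with 10% FBS and 7.69, 7.39 and 7.51 without serum, with a change of 0.12 (SE 0.081, adjusted p = 0.34). The effect of serum on *MAFF* and on *BACH2* differed between the siRNAs by 0.07 and 0.06 (adjusted p = 0.81 and 0.88).

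The remaining regulators were not called by limma on serum withdrawal. The change of *NFE2L2* was -0.06 in siControl (95% interval -0.15 to 0.03, adjusted p = 0.35) and 0.01 in siLAPTM4B (-0.12 to 0.13, adjusted p = 0.95). *KEAP1* read 10.81, 10.85 and 10.82 in siControl 10% FBS and 10.90, 10.91 and 10.96 in siControl 0% FBS, apart by 0.10 (SE 0.040, adjusted p = 0.12), and passed with an intensity trend and a robust prior variance (adjusted p = 0.037, range over the alternatives 0.037 to 0.30). In siLAPTM4B cells *KEAP1* differed by 0.05 (adjusted p = 0.52). *NFE2L1* read 10.93, 10.94 and 10.92 in siControl 10% FBS and averaged 11.01 ± 0.024 (SD, n = 3) in siControl 0% FBS, with no overlap and a difference of 0.08 (adjusted p = 0.15 in limma). The methods' t-test called *NFE2L1* there, both at an adjusted p under 0.05 and at an unadjusted p under 0.01. In siLAPTM4B its difference was also 0.08, with overlapping arrays (adjusted p = 0.37). *OSGIN1* differed by 0.04 and -0.02 (adjusted p = 0.63 and 0.93).

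Whether knockdown acted differently in the 2 media was fitted on all 12 arrays. At an adjusted p under 0.05, 0 of 9 regulators passed in limma, where 0.262% of all probe sets passed, and 2 were lower at an unadjusted p under 0.05, namely *NFE2L3* and *MAFG*, where 11% of all probe sets were that far apart. The same contrast is the difference of the serum effects between the siRNAs.

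The genes that act on these regulators after transcription were read from the same fits. The NRF2 turnover list holds ubiquitin ligase parts, competitors for KEAP1 and other factors that set NRF2 stability, and 15 of 15 were measured. After knockdown 0 of 15 passed in either medium, where 2.33% of all probe sets passed without serum and 4.08% with 10% FBS. The medians were 0.0044 and 0.041. At an unadjusted p under 0.05, 1 was lower without serum, where 15.1% of all probe sets were that far apart. With 10% FBS 3 were higher and 2 were lower, where it was 18.2%. *SQSTM1*, which encodes the p62 adaptor that draws KEAP1 into autophagy, had means of 11.77 in siLAPTM4B and 11.94 in siControl without serum, a difference of -0.17 (adjusted p = 0.097). On serum withdrawal *SQSTM1* rose by 0.27 in siControl (adjusted p = 0.0015) and by 0.16 in siLAPTM4B (adjusted p = 0.049). *PALB2*, whose product competes for KEAP1, fell by 0.15 in siControl (adjusted p = 0.034) and by 0.27 in siLAPTM4B (adjusted p = 0.0075). In all 2 of 15 rose and 1 fell under each siRNA, no larger a share than the 26% and 20.7% of all probe sets that passed in siControl and siLAPTM4B, among them *FBXW11* (0.23, siControl), an adaptor of a second NRF2 ligase, and *DPP3* (0.20, siLAPTM4B), another KEAP1 competitor. The 2 rises under siLAPTM4B became 0 without siLAPTM4B 0% FBS replicate 2 or 3 or without any of the 10% FBS replicates, and 1 without siLAPTM4B 0% FBS replicate 1. The fall of *PALB2* in siControl was lost without any siControl 0% FBS replicate and without siControl 10% FBS replicate 2.

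Of the NRF1 processing genes, which apart from *OGT* and *HCFC1* serve to release NRF1 from the endoplasmic reticulum and trim it, 7 of 8 were measured. After knockdown 0 passed in either medium, where 2.33% of all probe sets passed without serum and 4.08% with 10% FBS. At an unadjusted p under 0.05, 1 was higher without serum and 0 with 10% FBS, beside 15.1% and 18.2% of all probe sets. On serum withdrawal 2 rose and 2 fell in siControl, where 26% of all probe sets passed, and 2 rose and 1 fell in siLAPTM4B, where 20.7% passed. *NGLY1*, the glycanase that NRF1 needs for activity, fell by 0.29 in siControl (adjusted p = 0.0077) and by 0.38 in siLAPTM4B (adjusted p = 0.0016). *VCP*, the ATPase that extracts NRF1, rose by 0.15 under both siRNAs (adjusted p = 0.028 and 0.049), its cofactor *NPLOC4* by 0.20 in siControl, and the cofactor *UFD1L* by 0.20 in siLAPTM4B, while *HCFC1* fell by 0.31 in siControl. The rises became 1 on leaving out any siControl array except 10% FBS replicate 3, and 0 or 1 on leaving out any siLAPTM4B array. The 3 BACH turnover genes (*FBXO22*, *FBXL17* and *RBCK1*) had 0 calls in every comparison, where 0.262% to 26% of all probe sets passed. At an unadjusted p under 0.05, 1 was lower on serum withdrawal in siLAPTM4B, beside 31.2% of all probe sets, and 0 elsewhere.

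Of 20 listed dimer partners and cofactors, 18 were measured. After knockdown 1 of the 18 passed in each medium, where 2.33% of all probe sets passed without serum and 4.08% with 10% FBS. Knockdown lowered *FOS* without serum, an AP-1 subunit (means 9.14 and 9.76, log2 fold change -0.62, adjusted p = 0.011), and *RXRA* with 10% FBS, a nuclear receptor that can restrain NRF2 (-0.23, adjusted p = 0.026). The first count was 0 without siLAPTM4B 0% FBS replicate 2 and 2 without siControl 0% FBS replicate 2, and the second was 0 without any 1 of the 6 arrays. On serum withdrawal 7 of 18 rose and 3 fell in siControl, where 13.2% of all probe sets rose and 12.9% fell, and 7 rose and 0 fell in siLAPTM4B, where 9.74% rose and 11% fell. The AP-1 genes *FOS* and *JUN* rose most, by 1.70 and 1.15 in siControl and by 0.79 and 0.71 in siLAPTM4B. *JUNB* rose by 0.62 and 0.35 and *JUND* by 0.39 and 0.44 in siControl and siLAPTM4B. *RXRA* rose by 0.24 and 0.36 in the same order (adjusted p = 0.0024 and 0.00069). *FOSL1*, another AP-1 subunit, fell by 0.24 in siControl, as did the coactivator *CREBBP* by 0.22 and the mediator subunit *MED16* by 0.20.

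The genes downstream of these regulators were read as well, without a test of the list. Of 30 listed NRF2 targets, 26 were measured. After knockdown without serum 0 rose and 9 fell, where 1.74% of all probe sets fell, and all 26 fold changes were below 0, with a median of -0.20. With 10% FBS 0 rose and 8 fell, where 2.09% of all probe sets fell, 23 of 26 were below 0 and the median was -0.13. Among all probe sets 46.5% of the fold changes were below 0 without serum and 48.1% with 10% FBS. The heme oxygenase gene *HMOX1* fell by 0.96 without serum (adjusted p = 0.0033) and had a change of -0.18 with 10% FBS that did not pass (adjusted p = 0.39). The cystine transporter gene *SLC7A11* fell by 0.62 without serum and by 0.86 with 10% FBS (adjusted p = 0.0013 and 0.00046), and *ME1*, a source of NADPH, fell by 0.42 and by 0.36 (adjusted p = 0.0044 and 0.018). The *GCLM* subunit of glutathione synthesis fell by 0.41 without serum and had a change of -0.25 with 10% FBS (adjusted p = 0.087). The reductase *AKR1C3* fell by 0.64 with 10% FBS and fell by 0.33 without serum (adjusted p = 0.005 and 0.043), and *AKR1C2* fell by 0.54 with 10% FBS and had a change of -0.37 without serum (adjusted p = 0.31). This list was written with these results known and is not independent evidence of its direction. The 9 became 3 without siControl 0% FBS replicate 1 or 3 or siLAPTM4B 0% FBS replicate 2, 4 without siControl 0% FBS replicate 2 and 5 without siLAPTM4B 0% FBS replicate 1, and the 8 became 2 without siControl 10% FBS replicate 2, 4 without siControl 10% FBS replicate 3, 5 without siLAPTM4B 10% FBS replicate 1 and 3 without siLAPTM4B 10% FBS replicate 3.

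On serum withdrawal the NRF2 targets split. In siControl 9 rose and 5 fell and in siLAPTM4B 5 rose and 5 fell, with medians of 0.083 and 0.026, beside 13.2% of all probe sets higher and 12.9% lower in siControl and 9.74% and 11% in siLAPTM4B. *HMOX1* rose by 1.54 and 0.76 in siControl and siLAPTM4B, *ME1* by 0.57 and 0.51 and *GCLC* by 0.48 and 0.30, while *AKR1C3* fell by 1.54 and by 1.23 and the efflux pump gene *ABCC2* fell by 0.83 and by 0.90. The interaction called 0 of 26, where 0.262% of all probe sets passed. By an unadjusted p under 0.05, 2 were higher and 4 were lower, where 11% of all probe sets were that far apart. For *HMOX1* the knockdown effect differed between the media by -0.78 (SE 0.16, adjusted p = 0.074). Over the settings tried, the targets called lower in the interaction numbered 0 to 1. Of 31 proteasome genes that NRF1 can induce, 28 were measured. After knockdown 0 passed in either medium, where 2.33% of all probe sets passed without serum and 4.08% with 10% FBS. By an unadjusted p under 0.05, 0 were apart without serum and 3 with 10% FBS, of which 2 were higher. Among all probe sets these shares were 15.1% and 18.2%. In siControl 6 of the 28 rose on serum withdrawal, such as *PSMD14* by 0.25 and *PSMC2* by 0.22, and *PSMB3* fell by 0.18, where 13.2% of all probe sets rose and 12.9% fell. In siLAPTM4B 1 rose, again *PSMD14*, by 0.19, where 9.74% of all probe sets rose. The 6 became 3 without siControl 0% FBS replicate 2 or 3 or siControl 10% FBS replicate 2, the fall of *PSMB3* was lost without siControl 10% FBS replicate 2, and the call on *PSMD14* in siLAPTM4B was lost without any siLAPTM4B array except 10% FBS replicate 3.

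**Figure D4:**
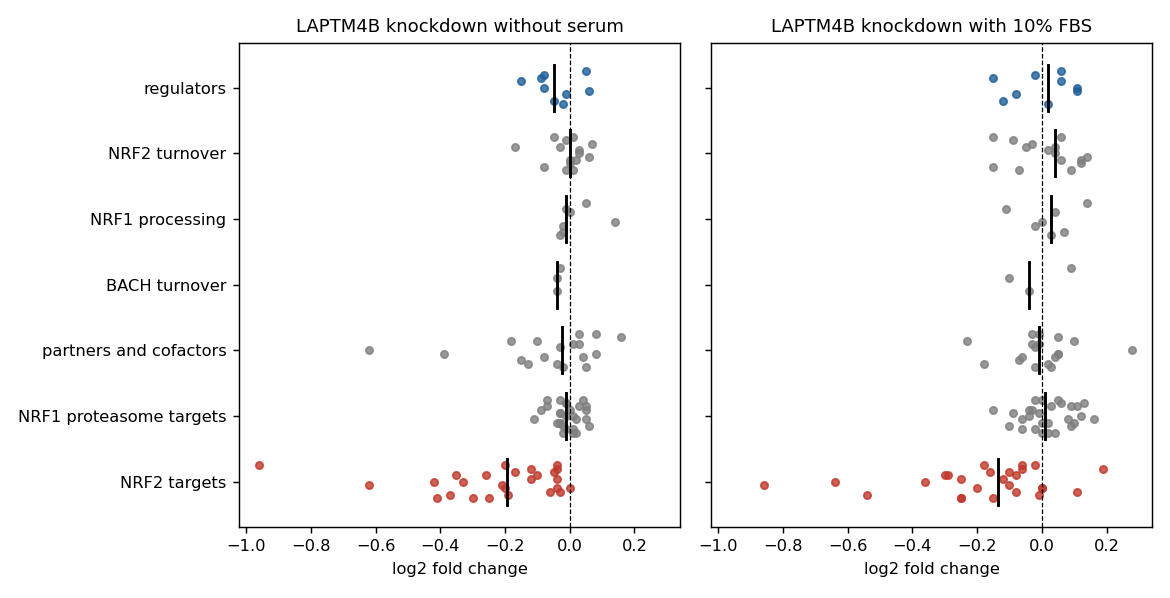
Log2 fold change after *LAPTM4B* knockdown (x axis) without serum (left) and with 10% FBS (right) for the 9 regulators (blue), the listed NRF2 targets (red) and the other listed genes (grey), with 1 point per gene and a black line at each list's median. The regulators' medians are -0.048 and 0.022, and those of the NRF2 targets are -0.20 and -0.13.

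The genes whose pattern over the 12 arrays was most like that of a regulator were found by Pearson correlation with 18416 other genes, given as a description, since all 12 arrays share the 4 groups. For *NFE2L2* they were *AHR* (r = 0.94), *NDUFV2* (0.907) and *RPL7A* (0.89). For *MAFG* they were *KLF6* and *HSPB8* (both 0.992) and *SAV1* (0.991).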

How the data were processed

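Gene expression was measured in 12 Calu-6 cultures on Affymetrix Human Gene 1.0 ST arrays. The authors deposited log2 values from RMA, run in BRB-ArrayTools, a procedure that corrects background, equalizes the distributions of the arrays and summarizes probes into probe sets. The probe set level and library file are not given in the sources used here. Values lay between 3.37 and 14.8, and the depth of an array is not a count, so its precision rests on the 3 arrays per group. This equalization gives every array nearly the same distribution, so a change shared by most transcripts would be removed. Probe sets were named from GEO's platform annotation: 19460 carried 1 symbol, 1754 several and 12038 none, and those with several or none were not named. *MAFK*, 4 NRF2 targets, 3 proteasome genes, 2 partners and 1 NRF1 processing gene had no probe set of their own symbol alone.

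Each comparison of 2 groups was fitted to its 6 arrays, and the interaction to all 12, in limma 3.58.1 (R 4.3.3) by lmFit and eBayes. Benjamini-Hochberg adjustment ran over the 19460 probe sets, with calls at an adjusted p under 0.05. Intervals are 95% and not adjusted. The fits of both media or both siRNAs are made on different arrays, but each group enters a knockdown and a serum comparison, so these share arrays. An exact permutation test of 3 arrays against 3 cannot go below 0.1 and was not used. The code was checked on simulated data. The study selected genes at an unadjusted p under 0.01 and names Student's test for its in vitro work (the methods' t-test), and both were run as alternatives, besides all probe sets, dim probe sets left out (the lowest 25%), an intensity trend with a robust prior variance, median centring, another *MAFG* probe set, the replicate block, all 12 arrays in one fit and leaving out each array. Counts of listed genes were run under these settings after their values had been seen.

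Same-numbered arrays were compared by the correlation of their deviations from the group means. It was 0.37, 0.13 and 0.20 between the siControl media, all above a chosen limit of 0.1. The labels state no shared batch, and arrays of different numbers were not compared, so these values do not establish a pairing. For the other comparisons at least 1 pair was at or under 0.1, although replicate 1 gave 0.32 to 0.39 in every comparison.

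The regulators, the lists and the motifs were chosen with earlier results of these data known. Named genes were the regulators, *LAPTM4B*, up to 4 called genes of each list, comparison and direction by size, *SQSTM1* where it was not called, and the 3 genes most like *NFE2L2* and the widest-ranging regulator. Of the called genes, some are left unnamed. Promoter letters were read from RefSeq tables by Python 3.11.15 and plots drawn with matplotlib 3.10.9.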

Additional observations from a re-analysis of the deposited data

Results flagged for a closer look

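Knockdown effects that differed between the media by a test of the difference were found for no regulator, and for *LAPTM4B* itself and *FOS* among the other named genes. *LAPTM4B* fell by 1.42 without serum and fell by 1.75 with 10% FBS, a difference of 0.33 (SE 0.056, adjusted p = 0.035). *FOS* fell by 0.62 without serum and had a change of 0.28 with 10% FBS that did not pass (adjusted p = 0.084). Its difference was -0.90 (SE 0.13, adjusted p = 0.0096). With all probe sets tested this call was lost, leaving 0 partner genes, and without siControl 0% FBS replicate 2 there were 2.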

How the results depend on the processing

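Precision is limited by 3 arrays per group of 1 cell line, and log2 signals of 1 probe set per gene can understate a change. Over the settings tried, 558 of the regulators' fold changes kept their direction and their side of the threshold, 15 changed sign, 4 newly passed and 13 no longer passed, and 75 counts stayed within 1.5 times while 8 did not. *NFE2L3* alone raised the count after knockdown without serum from 0 to 1, under an intensity trend plus robust prior variance, at an unadjusted p under 0.01 and in the methods' t-test at that threshold, and the count of the interaction from 0 to 1 with the trend and at an unadjusted p under 0.01. On serum withdrawal in siLAPTM4B the count of 5 was 3 to 4 on leaving out 1 array (3 without siLAPTM4B 0% FBS replicate 2 or 10% FBS replicate 2) and 3 in the adjusted methods' t-test. The cause was not tested.

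No called direction reversed. *MAFG* after knockdown without serum was 0.00642 in its dimmest probe set. On leaving out 1 array, uncalled changes near 0 crossed it: *NFE2L2* after knockdown without serum (-0.0278 to 0.0197) and on serum withdrawal in siLAPTM4B (-0.0247 to 0.0458), *OSGIN1* after knockdown with 10% FBS (-0.0825 to 0.0756) and on serum withdrawal in siLAPTM4B (-0.109 to 0.0487), and the interactions of *NFE2L1* (-0.0293 to 0.02), *BACH2* (-0.013 to 0.137) and *OSGIN1* (-0.151 to 0.00722).

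With the replicate block the regulators called were 0 and 0 after knockdown, 2 and 4 on serum withdrawal in siControl and siLAPTM4B and 0 in the interaction. Same-numbered arrays all correlated above 0.1 only in siControl, where the block changed no call on a regulator. Elsewhere the correlations were 0.39, 0.069 and 0.18 and 0.37, 0.15 and -0.079 between the siRNAs. Between the siLAPTM4B media they were 0.32, 0.13 and -0.17.

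Among all probe sets, knockdown called 454 without serum and 793 with 10% FBS. These were 134 and 279 with all probe sets tested, 1126 and 1686 with the trend, 687 and 1370 with all 12 arrays in one fit, and 27 and 177 in the adjusted methods' t-test. Leaving out 1 array gave 118 to 290 and 228 to 482. The interaction's 51 was 17, 79 with dim probe sets left out, 84 with the block and 163 with the trend.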
